A study of Mus musculus with 2 samples.

Results

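Donor CD4 T cells of the colon in graft-versus-host disease were split by the size of their T cell receptor clone. Of 5333 cells kept from 1 RNA library, 2628 carried a full receptor, meaning exactly 1 productive beta chain (TRB) and at least 1 productive alpha chain (TRA), and they formed 826 clonotypes. A clonotype was defined by the nucleotides of every productive CDR3 in a cell together with the V and J segments used, and its size was counted over all kept cells. The CD4 class held the 1861 cells with at least 1 Cd4 UMI (unique molecular identifier, 1 captured transcript) and none of Cd8a or Cd8b1. The comparison was between 540 CD4 class cells in 49 clonotypes of 5 or more cells, called expanded, and 213 CD4 class cells whose clonotype was seen once, called single. Another 132 CD4 class cells lay in 66 clonotypes of 2 to 4 cells and were left out of the comparison, and 976 had no full receptor (734 without TRB, 197 with TRB and no TRA, 45 with 2 or more TRB).

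Both groups came from the same animals. Balb/c recipients had been lethally irradiated and given bone marrow (5000000 cells) and splenocytes from C57BL/6 donors, the splenocytes holding 800000 alpha beta T cells. On day 21 the colons of 5 mice were dissociated and pooled, and donor T cells were sorted as H2-Kb+ and TCR beta+. The titles name CD4 T cells, but the sort took both lineages, and 2391 kept cells were of the CD8 class. There was no untransplanted or syngeneic control, and no label ties a cell to a mouse, so clones of different mice and clones of 1 mouse cannot be told apart.

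One pool is 1 sample. No difference below has a test, and every 95% interval covers counting error only: exact Poisson for levels, conditional binomial for ratios and Clopper-Pearson for shares. PCR and capture add error that these intervals do not hold.

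As background, a naive T cell carries a receptor made by random joining of V, D and J segments, and its daughters inherit that receptor. Cells with the same TRA and TRB are therefore read as descendants of 1 clone, and clone size as a record of past division and survival. In graft-versus-host disease donor CD4 cells recognise antigens of the recipient, divide, and take on helper programmes marked by cytokines such as interferon gamma, interleukin 17 or GM-CSF, all of which have been tied to injury or repair of the gut lining.

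The 49 expanded clonotypes held 797 kept cells in all. Besides the 540 CD4 class cells these were 8 CD8 class cells, 39 with UMIs of both lineages and 210 with UMIs of neither. The 8 CD8 class cells lay in 8 different clonotypes, and in all 49 the CD4 class cells outnumbered the CD8 class cells. Clonotypes ran from 5 to 57 cells with a median of 10, and from 2 to 40 CD4 class cells with a median of 6. The 7 with most CD4 class cells held 242 of the 540 (44.8%). To keep such clones from setting the values, at most 5 CD4 class cells were drawn from each clonotype, which left 224.

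The beta chain CDR3 sequences of the 6 clonotypes with most CD4 class cells are printed to show how different the leading receptors were. Capitals mark bases that matched neither the germline V nor the germline J segment, taken from the GENCODE M21 transcripts (mm10), so they hold D segment and added bases.
Clonotype 1, TRBV1 with TRBJ1-1: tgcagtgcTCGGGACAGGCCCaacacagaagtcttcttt
Clonotype 2, TRBV4 with TRBJ2-4: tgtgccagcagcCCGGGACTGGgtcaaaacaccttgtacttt
Clonotype 3, TRBV17 with TRBJ2-4: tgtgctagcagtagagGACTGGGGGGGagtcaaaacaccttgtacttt
Clonotype 4, TRBV31 with TRBJ1-1: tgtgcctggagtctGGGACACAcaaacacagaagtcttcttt
Clonotype 5, TRBV19 with TRBJ2-1: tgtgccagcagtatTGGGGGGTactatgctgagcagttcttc
Clonotype 6, TRBV3 with TRBJ2-3: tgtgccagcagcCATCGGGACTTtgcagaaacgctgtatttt
These 6 used 6 different TRBV segments, and between 8 and 13 bases of each lay outside V and J. Clonotypes 1 and 2 had 40 CD4 class cells each, clonotype 3 had 38, clonotype 4 had 33, and clonotypes 5 and 6 had 31 each.

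Receptors of the 2 groups had the same typical length and unequal V segments. The TRB CDR3 had a median of 14 codons in both groups, and the median number of bases outside V and J was 11 in expanded and 10 in single clonotypes. Expanded clonotypes used 9 TRBV segments and single ones 19. There were 49 against 213 clonotypes, so segments rare among single ones could be missed among the expanded. TRBV5 was carried by 22.4% of expanded clonotypes (11.8 to 36.6) against 7.04% of single ones (3.99 to 11.3). TRBV13-3 was carried by 14.3% (5.94 to 27.2) against 3.29% (1.33 to 6.65), intervals that overlap. Clonotypes with the same TRB count separately here. Clonotypes 13, 32 and 48 had 1 TRB with TRBV5, and 20, 40 and 43 had 1 with TRBV13-3. Of the 19 segments, 10 were absent from the expanded clonotypes. They were TRBV12-1, TRBV12-2, TRBV15 and TRBV16, described next, and TRBV13-2, TRBV14, TRBV2, TRBV20, TRBV23 and TRBV29, which 35 single clonotypes (16.4%) carried, so absence was not particular to the first 4.

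Those 4 segments, grouped after their values were seen, were carried by 56 of 213 single clonotypes (26.3%, 20.5 to 32.7) and by 9 of the 66 clonotypes of 2 to 4 cells (13.6%, 6.43 to 24.3). They were carried by 0 of 49 expanded clonotypes (0%, 0 to 7.25), an interval that overlaps that of the clonotypes of 2 to 4 cells. At the floor of 3 counts the share would be 6.12%, below the upper bound of 7.25%. As background, their V beta chains are ones that Balb/c mice delete through endogenous superantigens shown on MHC class II. In the CD8 class they were carried by 10 of 50 expanded clonotypes (20%, 10.03 to 33.7) and 63 of 242 single ones (26.0%, 20.6 to 32.0).

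**Figure D1:**
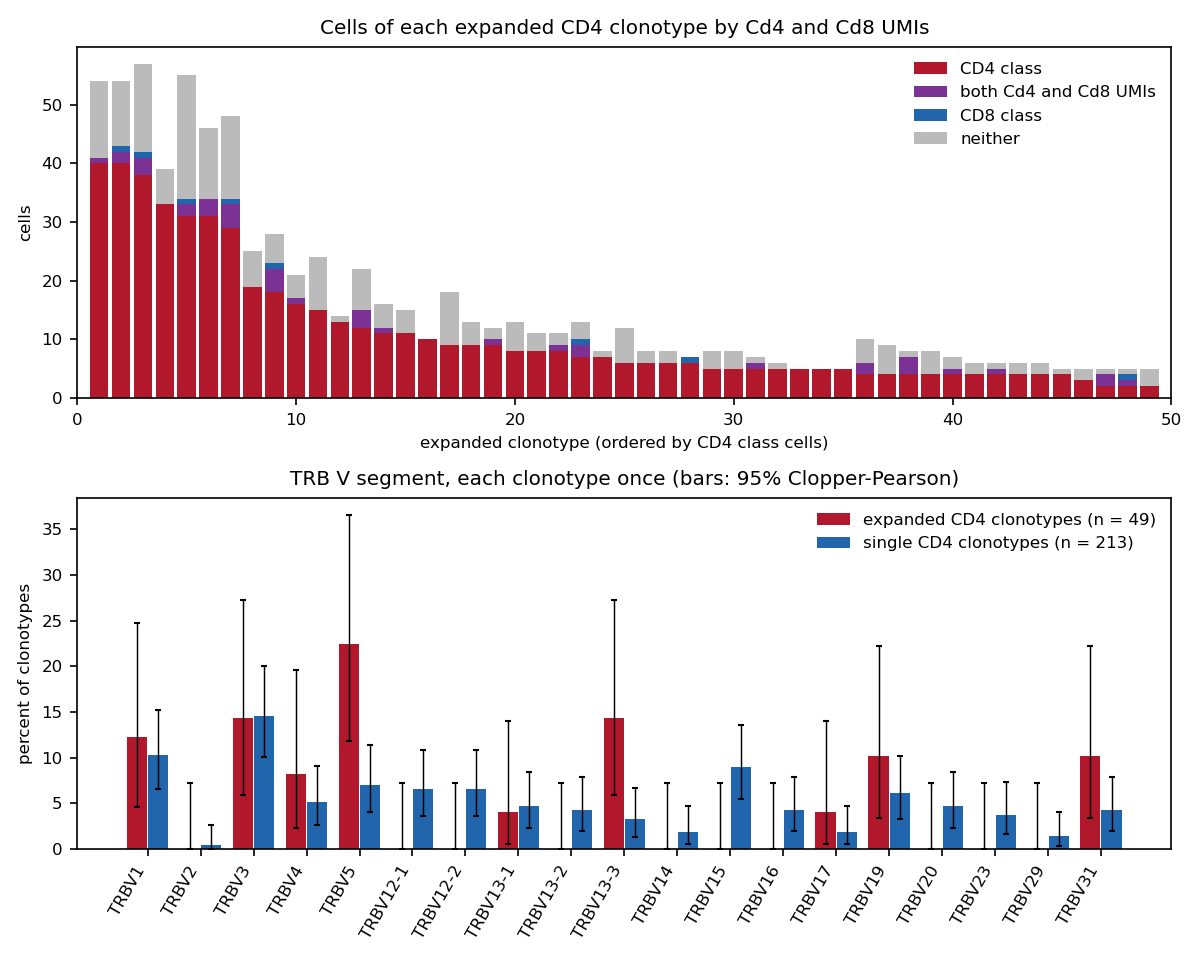
Top: cells in each of the 49 expanded CD4 clonotypes (x axis, ordered by CD4 class cells), stacked by class. Bottom: percent of clonotypes with each TRB V segment in expanded (red, n = 49) and single (blue, n = 213) clonotypes, with 95% Clopper-Pearson intervals. The largest bars reach 57 cells, the CD8 class part is never above 1 cell, and 10 segments have a blue bar only.

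Not every clonotype counted here was a separate beta chain. The 49 expanded clonotypes had 41 different TRB sequences, 13 had a TRB that another of the 49 also had, and 9 of these also had a TRA found in another of the 49. Clonotypes 6, 37 and 46 had the same TRB, and the 2 TRA of clonotype 6 were the TRA of clonotype 37 and that of clonotype 46. Among the single cells, 60 (28.2%) had a TRB found in another kept cell, and for 25 of them it was that of an expanded CD4 clonotype. At least 2 TRA were read in 55 single cells (25.8%) and in 8 of 49 expanded clonotypes (16.3%). The single group is therefore a mix, and its 153 cells with a TRB seen nowhere else are described apart further on.

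Depth was close in the 2 groups. The 224 expanded cells summed to 1429825 UMIs with a median of 5066.5 per cell, and the 213 single cells to 1453588 with a median of 5348. The median share of mitochondrial UMIs was 2.21% and 2.18%. A level below is the UMIs of a gene per 10000 UMIs of its group, and 5876 genes with at least 50 UMIs over both groups were compared. Of these, 50 (0.851%) were at least 2-fold higher in expanded clonotypes and 87 (1.48%) at least 2-fold lower, and the median log2 ratio was 0.05. Receptor segment genes, which follow from the clones themselves, made up 3 of the 50 and 10 of the 87. The filter sums both groups, so a gene could pass mainly through the group where it was high. Klrk1 did so with 8 expanded and 146 single UMIs. Counts of genes past 2-fold, here and in the lists below, include such genes. Each list count below stands beside the shares over all genes, 0.851% higher and 1.48% lower. A summed level alone cannot tell fewer cells with a transcript from fewer transcripts per cell.

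**Figure D2:**
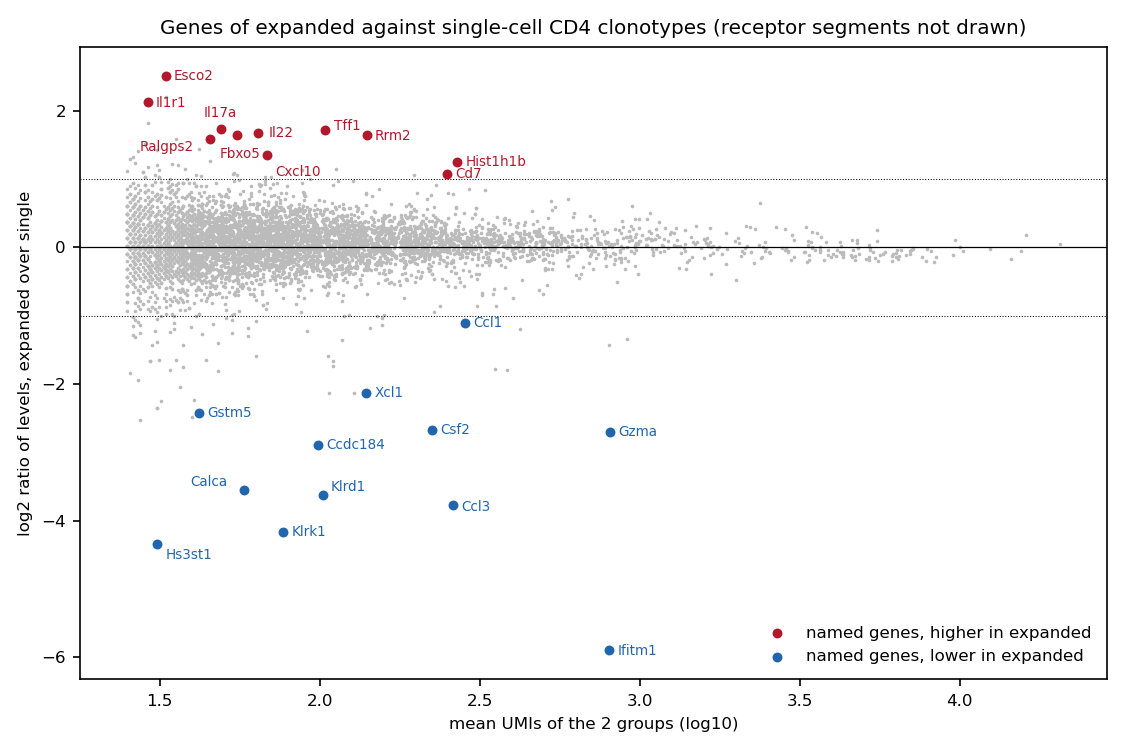
Each point is 1 gene, with its mean UMIs in the 2 groups (x axis, log10) and its log2 ratio of levels, expanded over single (y axis); receptor segments are not drawn and dotted lines mark 2-fold. The cloud narrows around 0 with more UMIs, and Ifitm1 lies lowest at -5.90.

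Ifitm1 differed most. It encodes an interferon-induced transmembrane protein that restricts virus entry and lies on chromosome 7 at 140967221 to 140969825 (mm10, plus strand). Across the 49 expanded clonotypes its level had a lowest and a median value of 0 and a highest of 5.54, and 11 clonotypes had at least 1 UMI among all their CD4 class cells. Among single cells 77 of 213 had a UMI and the highest level was 143.7. The summed level was 0.182 (0.119 to 0.266) in expanded and 10.8 (10.3 to 11.4) in single clonotypes, 59.6-fold lower, with a ratio of 0.0168 (0.0109 to 0.0247). Clonotypes and single cells overlapped, since most single cells also had none. A clonotype's level pools its cells, so 1 UMI gives a single cell a higher level. Highest values of clonotypes and single cells, here and below, are therefore not like measures.

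The UMIs of Ifitm1 were spread over many single cells. The top single cell held 7.04% of them. At an equal depth of 2000 UMIs per cell, 1.34% of expanded cells (0.277 to 3.86) and 30.05% of single cells (24.0 to 36.7) had at least 1 Ifitm1 UMI, beside 9.08% of CD8 class cells (7.95 to 10.3). Without thinning the shares were 2.23%, 36.2% and 11.7%, and the CD8 class had a median depth of 4910 UMIs. Over all alternatives run for this gene, the ratio stayed between 0.00788 and 0.289. The size of the difference depended on the cells drawn: it was 75.4-fold with another draw of at most 5 cells, 24.5-fold with the draw used for clonotype sizes further on, 24.3-fold with all 540 cells and 27.1-fold with each clonotype weighted equally.

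The neighbouring family members were lower too. Ifitm2 had levels of 1.18 and 4.12 (ratio 0.287, 0.240 to 0.341) and Ifitm3 of 3.57 and 9.04 (ratio 0.395, 0.356 to 0.438). Both were read in most expanded clonotypes, 42 of 49 for Ifitm2 and 44 of 49 for Ifitm3, unlike Ifitm1 with 11. The 8 compared genes of the general interferon response list had a median log2 ratio of 0.07 with none past 2-fold. Isg15, a ubiquitin-like protein induced by interferon, had a ratio of 1.23 (1.01 to 1.51), and its direction turned in some alternatives (lowest ratio 0.885). How reads that fit several near-identical genes were counted is not stated in any source used here.

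Receptors shared with natural killer cells were low in expanded clonotypes. Klrd1 (CD94) pairs with Klrc1 (NKG2A) to bind the class I molecule Qa-1, and Klrk1 (NKG2D) binds stress-induced ligands. Klrd1 had a median of 0 and a highest value of 0.787 over the 49 clonotypes, against 61 single cells with a UMI and a highest of 20.4. Its level was 0.105 in expanded and 1.30 in single clonotypes (ratio 0.0807, 0.0443 to 0.137). Klrk1 was at 0.0560 against 1.0 (ratio 0.0557, 0.0236 to 0.113), with UMIs in 9 clonotypes and 51 single cells. Klrc1 was at 0.329 against 1.44 (ratio 0.229, 0.163 to 0.315).

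Single cells with these genes overlapped in part. Of the 61 single cells with Klrd1, 38 also had Ifitm1 and 31 also had Klrk1. The CD8 class had Klrd1 in 21.4% of cells at 2000 UMIs, above the 14.1% of single and the 1.34% of expanded CD4 cells.

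Cytotoxic genes went both ways. Of 13 compared members of the list, 5 were at least 2-fold lower (1.48% over all genes compared) and 1 at least 2-fold higher (0.851%). The list's median log2 ratio was -0.70. The 5 were Klrd1, Klrk1 and Klrc1, given above, Gzma, and Gzmc at 0.0979 against 0.406 (ratio 0.241, 0.124 to 0.437). Gzma, granzyme A, had a median of 0.0852 and a highest value of 10.0 over the expanded clonotypes, against a highest single cell of 355.3. Its level was 1.48 against 9.67 (ratio 0.153, 0.132 to 0.177), and 1 clonotype gave 62.7% of the expanded UMIs. Gzmk, granzyme K, was higher at 0.839 against 0.385 (ratio 2.18, 1.57 to 3.05), and its ratio was 3.75 with all cells. Gzmb, granzyme B, had levels of 5.13 and 4.27 (ratio 1.2, 1.08 to 1.34), and its ratio was 0.750 when each clonotype had equal weight. Nkg7, a granule membrane protein, was read in all 49 clonotypes with levels of 10.04 and 13.1. Granzymes therefore did not move as 1 group.

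GM-CSF and the chemokines that go with it were low in expanded clonotypes. Of 8 compared genes of that list 5 were at least 2-fold lower (1.48% over all genes compared) and 1 at least 2-fold higher (0.851%). The 5 were Csf2, Ccl1, Ccl3, Ccl4 and Xcl1. The list's median log2 ratio was -1.44, and Bhlhe40, Tnf and Il1r1 were not lower. Csf2, which encodes GM-CSF, a growth factor of myeloid cells, lies on chromosome 11 at 54247271 to 54249667 (mm10, minus strand). Over the expanded clonotypes its median was 0 and its highest value 5.53, with UMIs in 19 of 49. Among single cells 44 had a UMI and the highest level was 48.2. The level was 0.420 (0.320 to 0.540) against 2.67 (2.41 to 2.95), a ratio of 0.157 (0.118 to 0.207). With other cells drawn the ratio was 0.274 or 0.306, and it was 0.198 with all cells and 0.229 with clonotypes weighted equally. At 2000 UMIs the shares of cells with Csf2 were 4.46% and 12.7%, beside 1.21% in the CD8 class. The groups overlapped, since 30 of 49 clonotypes and most single cells had no Csf2 UMI.

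Bhlhe40, a transcription factor needed for GM-CSF production in T cells, had levels of 14.2 and 13.4 (ratio 1.06, 0.999 to 1.13), and its ratio was as low as 0.988 in an alternative. Tnf, a cytokine of many activated T cells, was higher at 0.573 against 0.358 (ratio 1.60, 1.12 to 2.31), and its ratio was 1.22 with clonotypes weighted equally. Il3, Csf2rb, Csf2rb2 and Il2 of the same list had fewer than 50 UMIs over both groups and were not compared. The first 3 had no UMI in the expanded cells, while Il2 had UMIs there, and all had at least 1 in the single cells. Il1r1, the interleukin 1 receptor, was the 1 compared gene of the list at least 2-fold higher and is given with the Th17 genes.

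Ccl1, Ccl3, Ccl4 and Xcl1, the lower genes of that list besides Csf2, had values that 1 clone or 1 cell could move. Ccl3 and Ccl4 attract monocytes and T cells. Ccl3 was at 0.245 against 3.35 (ratio 0.0731, 0.0503 to 0.103), but 1 single cell held 57.3% of the single UMIs, and without the top cell and top clonotype the ratio was 0.133. Ccl4 was at 1.10 against 3.76 (ratio 0.292, 0.243 to 0.349). Xcl1, the ligand of Xcr1 on cross-presenting dendritic cells, was at 0.357 against 1.57 (ratio 0.227, 0.164 to 0.309), with UMIs in 9 of 49 clonotypes. With all cells the ratio was 0.118 for Ccl3 and 0.128 for Xcl1. Clonotype 35, with 5 cells, had an Xcl1 level of 9.75, the highest of any.

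Clonotype 35 also led Ccl1, a ligand of Ccr8, at 37.3. The Ccl1 median over the expanded clonotypes was 0. Its summed level was 1.24 against 2.68 (ratio 0.465, 0.387 to 0.557), 1 clonotype held 86.0% of the expanded UMIs, and without it and the top single cell the ratio was 0.0820, while with all cells it was 0.262. Ccl5, a chemokine made by effector T cells, was by contrast at 25.3 against 20.6 (ratio 1.23). Cxcl10, the ligand of Cxcr3, was higher at 0.685 against 0.268 (ratio 2.55, 1.75 to 3.80).

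Genes of Th17 cells were higher, though from few cells. Of 10 compared list members 4 were at least 2-fold higher (0.851% over all genes compared) and 1 at least 2-fold lower (1.48%). The list's median log2 ratio was 0.69. Of the 4, Il1r1 (47 expanded and 11 single UMIs) and Il17a (75 and 23) passed the filter of 50 UMIs mainly through the expanded group. The count and median are therefore not independent of the high values. Il1r1, which lets Th17 cells respond to interleukin 1, had a median of 0 and a highest value of 2.39 over the 49 clonotypes and UMIs in 23 of them, against 10 single cells. Its level was 0.329 against 0.0757 (ratio 4.34, 2.22 to 9.29). Rora, a transcription factor of Th17 and innate-like cells, was read in all 49 clonotypes at 8.74 against 6.19 (ratio 1.41, 1.30 to 1.54). Ahr, the aryl hydrocarbon receptor, was lower at 0.147 against 0.461 (ratio 0.319, 0.185 to 0.527).

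Il17a and Il22 encode cytokines that act on the gut lining. Il17a had UMIs in 15 of 49 clonotypes and in 4 single cells. Its median over the clonotypes was 0, with a highest value of 15.9 in clonotype 48, which has 2 CD4 class cells. The summed level of Il17a was 0.525 against 0.158 (ratio 3.32, 2.05 to 5.54). A single cell held 78.3% of the single UMIs, and without that cell and the top clonotype the ratio was 11.2, while with all cells it was 1.94. At 2000 UMIs 4.91% of expanded cells had Il17a against 0.469% of single cells and 0.0836% of the CD8 class.

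Il22 also had UMIs in 15 clonotypes and in 2 single cells. Its highest value was 21.4 in clonotype 37, which has 4 CD4 class cells and the TRB of clonotype 6. The summed level of Il22 was 0.678 against 0.213 (ratio 3.18, 2.10 to 4.93), and 1 single cell held 93.5% of the single UMIs. With all cells the ratio was 2.03, and with clonotypes weighted equally it was 1.51. The direction of both genes turned when only clonotypes of 10 or more cells counted as expanded, with log2 ratios of -0.09 for Il17a and -0.20 for Il22. For Il22 it also turned with 1 cell drawn per clonotype, at -2.67. By size, in a separate draw of cells, Il22 was at 1.01 in clonotypes of 5 to 9 cells and 0.186 in those of 10 or more.

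Genes of Th2 cells were lower in the expanded group. All 7 compared list members had a log2 ratio between -1.94 and -0.45, with a median of -0.88. At least 2-fold lower were 3 of the 7, beside 1.48% of all genes compared. Gata3, the defining transcription factor, had a median of 0.258 and a highest value of 3.41 over the clonotypes, and UMIs in 37 of 49 clonotypes and 95 single cells. Its level was 0.608 against 1.38 (ratio 0.442, 0.340 to 0.572). Il13, a cytokine that drives mucus and smooth muscle responses, was at 0.0769 against 0.296 (ratio 0.260, 0.121 to 0.513), but the ratio was 0.442 with another draw and 0.795 with clonotypes weighted equally. Plac8 was at 3.0 against 8.06 (ratio 0.372, 0.333 to 0.416), and Ccr8, the Ccl1 receptor, at 1.17 against 2.13 (ratio 0.549, 0.452 to 0.665). Calca, which encodes calcitonin and the neuropeptide CGRP, is outside the list and was at 0.0629 against 0.736 (ratio 0.0855, 0.0381 to 0.168), with UMIs in 4 clonotypes and 19 single cells, and its ratio was 0.0401 with all cells.

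Genes of Th1 cells differed little. The 12 compared members had a median log2 ratio of 0.02, with 1 at least 2-fold lower (Ly6c2, 0.0979 against 0.461) and none higher. With another draw the Ly6c2 ratio was 0.411 in place of 0.212, and with all cells it was 0.519. Ifng, interferon gamma, was read in 45 of 49 clonotypes and had levels of 1.82 and 1.68 (ratio 1.08, 0.906 to 1.30). Tbx21, the Th1 transcription factor T-bet, was at 0.608 against 0.970 (ratio 0.627, 0.475 to 0.825). Cxcr3, the receptor of Cxcl10, was at 1.41 against 0.908 (ratio 1.55, 1.24 to 1.94). The interval of the Ifng ratio held 1 and those of Tbx21 and Cxcr3 did not. The direction of Ifng also turned in some alternatives (lowest ratio 0.720).

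Regulatory and inhibitory genes were split. Of 10 compared genes of the Treg and Tr1 list 1 was at least 2-fold higher (0.851% over all genes compared) and 1 at least 2-fold lower (1.48%). The lower was Klrg1 (ratio 0.401, 0.205 to 0.747), and the list's median log2 ratio was -0.25. Foxp3 of that list was not among the genes compared. Of 10 compared inhibitory receptors 2 were at least 2-fold lower, Havcr2 (ratio 0.417, 0.251 to 0.674) and Cd200 (ratio 0.497, 0.288 to 0.836). Ctla4, which blocks CD28 costimulation, was higher at 7.94 against 5.22 (ratio 1.52, 1.39 to 1.67) and read in all 49 clonotypes. Il10, an anti-inflammatory cytokine, was at 0.259 against 0.110 (ratio 2.35, 1.28 to 4.53), from 14 clonotypes and 10 single cells. Lower, but not past 2-fold, were Lag3, an inhibitory receptor for MHC class II, at 0.734 against 1.46 (ratio 0.504, 0.395 to 0.639), and Pdcd1 (PD-1) at 1.75 against 3.18 (ratio 0.550, 0.470 to 0.643). Il2ra, the alpha chain of the interleukin 2 receptor, was at 1.08 against 2.08 (ratio 0.518, 0.424 to 0.631).

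The receptor complex and costimulation lists lay near 0. None of 14 compared TCR genes and none of 11 costimulatory receptors was past 2-fold, with median log2 ratios of 0.16 and 0.05. Within them Cd5, a brake on TCR signals, was at 5.15 against 3.15 (ratio 1.63, 1.45 to 1.84), and Tnfrsf9 (4-1BB), a receptor induced by TCR signals, was lower at 1.52 against 2.78 (ratio 0.549, 0.463 to 0.648). Cd7, an immunoglobulin family receptor of T cells, was higher at 2.36 against 1.12 (ratio 2.10, 1.74 to 2.55) and read in 41 clonotypes. Myc, a growth regulator induced by TCR signals, was at 0.238 against 0.585 (ratio 0.407, 0.265 to 0.612), but at a ratio of 0.693 with another draw of cells and 0.575 with all cells. Egr1, an early response gene, was at 0.874 against 0.592 (ratio 1.48, 1.11 to 1.97), with a lowest ratio of 0.977 over the alternatives. The early TCR response genes therefore had no shared direction, and their median was 0.05.

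Adhesion genes showed a pair of opposite values. Itgb7 encodes the beta 7 chain, which with alpha 4 binds MAdCAM-1 on gut vessels and with alpha E binds E-cadherin on epithelium. It was higher at 4.51 against 2.83 (ratio 1.60, 1.41 to 1.81). Itgb1, the beta 1 chain of receptors for matrix proteins, was lower at 0.455 against 1.16 (ratio 0.391, 0.289 to 0.523). The 8 compared integrin genes had a median log2 ratio of -0.08.

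Of 12 compared homing receptors 1 was at least 2-fold higher and 1 at least 2-fold lower, with a median log2 ratio of 0.29. The higher was Ccr9, at 0.629 against 0.310 (ratio 2.03, 1.41 to 2.98). The lower was Ccr7, which directs cells to lymph nodes, at 0.147 against 0.516 (ratio 0.285, 0.167 to 0.467). The Ccr7 ratio was 0.475 with all cells. Cxcr4 was at 1.05 against 0.537 (ratio 1.95, 1.48 to 2.60). Tcf7, a transcription factor of naive and memory T cells, was higher at 0.713 against 0.385 (ratio 1.85, 1.32 to 2.61). Anxa1, annexin A1, was at 0.0839 against 0.468 (ratio 0.179, 0.0884 to 0.334), and Lgals3, galectin 3, at 1.78 against 4.07 (ratio 0.437, 0.376 to 0.507). S100a4, a calcium-binding protein, went the other way at 2.28 against 1.33 (ratio 1.71, 1.43 to 2.05).

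Other genes named by rank had low counts. Hs3st1, a heparan sulfate sulfotransferase, had 62 UMIs in 8 single cells and none in expanded cells. With a floor of 3 UMIs put in for the expanded group it was 20.3-fold lower. In the draw used for sizes the floor gave a ratio of 0.0471, and the interval reached 0.0597. Ccdc184 was at 0.161 against 1.2 (ratio 0.134, 0.0830 to 0.208) and was read in 46 single cells. Gstm5, a glutathione transferase, was at 0.0909 against 0.488 (ratio 0.186, 0.0945 to 0.339). With all cells the ratio was 0.0814 for Ccdc184, and with the draw used for sizes it was 0.0823 for Gstm5. Higher were Tff1, a trefoil peptide best known from mucosal epithelium, at 1.11 against 0.337 (ratio 3.30, 2.38 to 4.64) with UMIs in 36 of 49 clonotypes, and Ralgps2, an exchange factor of the Ral GTPase, at 0.476 against 0.158 (ratio 3.01, 1.85 to 5.05).

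**Figure D3:**
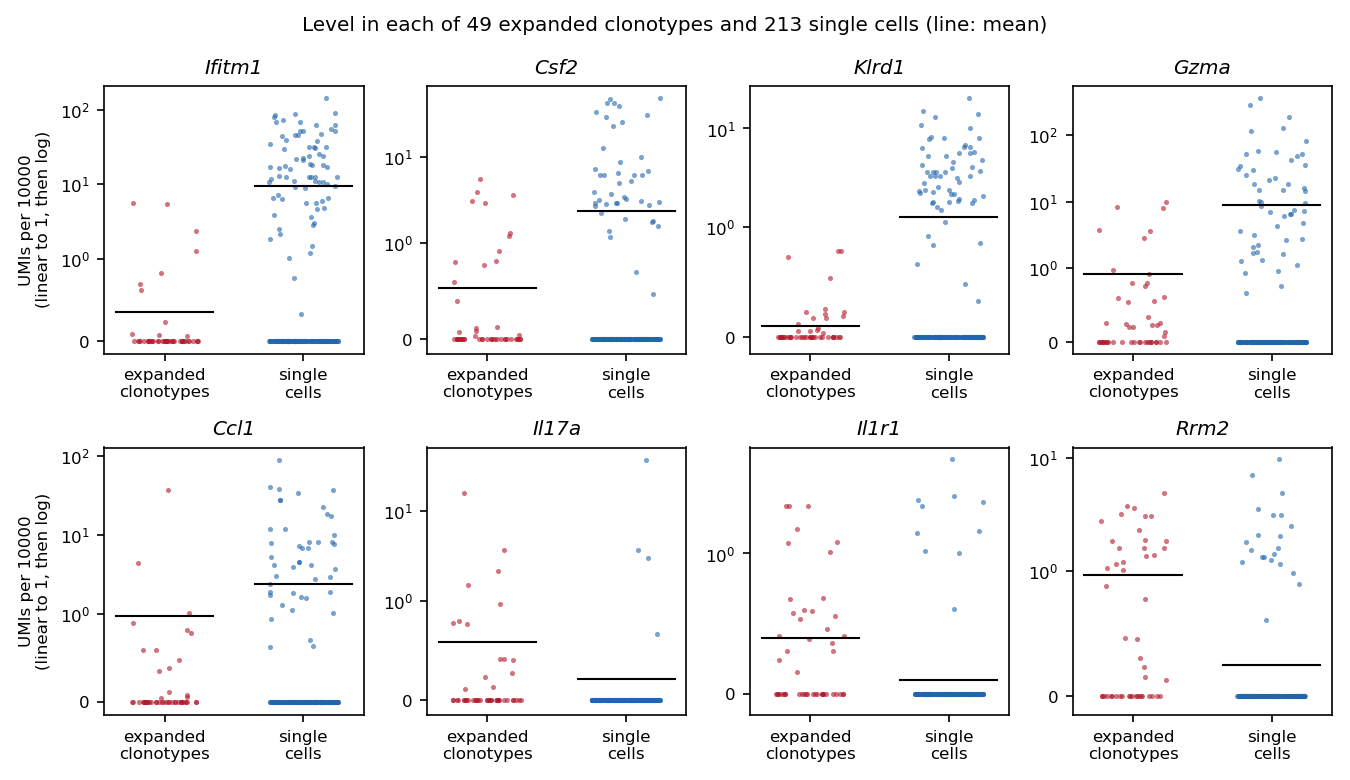
Level in UMIs per 10000 (y axis, linear to 1 and log above) for 8 genes in each of the 49 expanded clonotypes, over all CD4 class cells of each (red), and in each of 213 single cells (blue); black lines are means. Ifitm1, Csf2, Klrd1 and Gzma have many single cells above every clonotype, and Ccl1 and Il17a have lone high points. A single cell's zero is less informative than a clonotype's because it rests on fewer UMIs. For the same reason 1 UMI gives a single cell a higher level, so heights are not like measures in the 2 groups.

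In the draw of at most 5 cells per clonotype, DNA replication genes were higher and mitosis genes were level. All 16 compared S phase genes had a log2 ratio of 0.10 or more, with a median of 0.57, and 1 was past 2-fold. Rrm2, a subunit of ribonucleotide reductase, had a median of 0.307 and a highest value of 4.88 over the clonotypes, with UMIs in 28 of 49 and in 21 single cells. Its level was 1.48 against 0.475 (ratio 3.11, 2.36 to 4.14). Mcm6, part of the replicative helicase, was at 1.37 against 0.757 (ratio 1.81, 1.43 to 2.31), Esco2, which acetylates cohesin in S phase, at 0.392 against 0.0688 (ratio 5.69, 2.88 to 12.5), and the linker histone Hist1h1b at 2.63 against 1.11 (ratio 2.37, 1.97 to 2.87). Fbxo5, an inhibitor of the anaphase-promoting complex, was at 0.580 against 0.186 (ratio 3.13, 2.0 to 5.02).

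The 18 compared mitosis genes had a median log2 ratio of 0.03 and none was past 2-fold. Top2a, a topoisomerase of dividing cells, was at 2.69 against 2.14 (ratio 1.26, 1.08 to 1.46) and Ube2c, an enzyme of mitotic exit, at 2.49 against 3.46 (ratio 0.720, 0.626 to 0.826). The direction of both turned in some alternatives, with a lowest ratio of 0.929 for Top2a and a highest of 1.51 for Ube2c. With clonotypes weighted equally the ratio was 1.89 for Top2a, 1.49 for Ube2c and 2.38 for the mitotic kinase gene Aurkb. The Aurkb ratio was 1.70 in the capped draw, so the level of mitosis genes depended on the weighting. Cells with at least 2 UMIs summed over Mki67 and Top2a made up 22.3% (17.0 to 28.3) of expanded and 17.4% (12.5 to 23.1) of single cells, intervals that overlap. Without those cells the S phase median was 0.11, and the median over the GM-CSF list was -0.83.

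**Figure D4:**
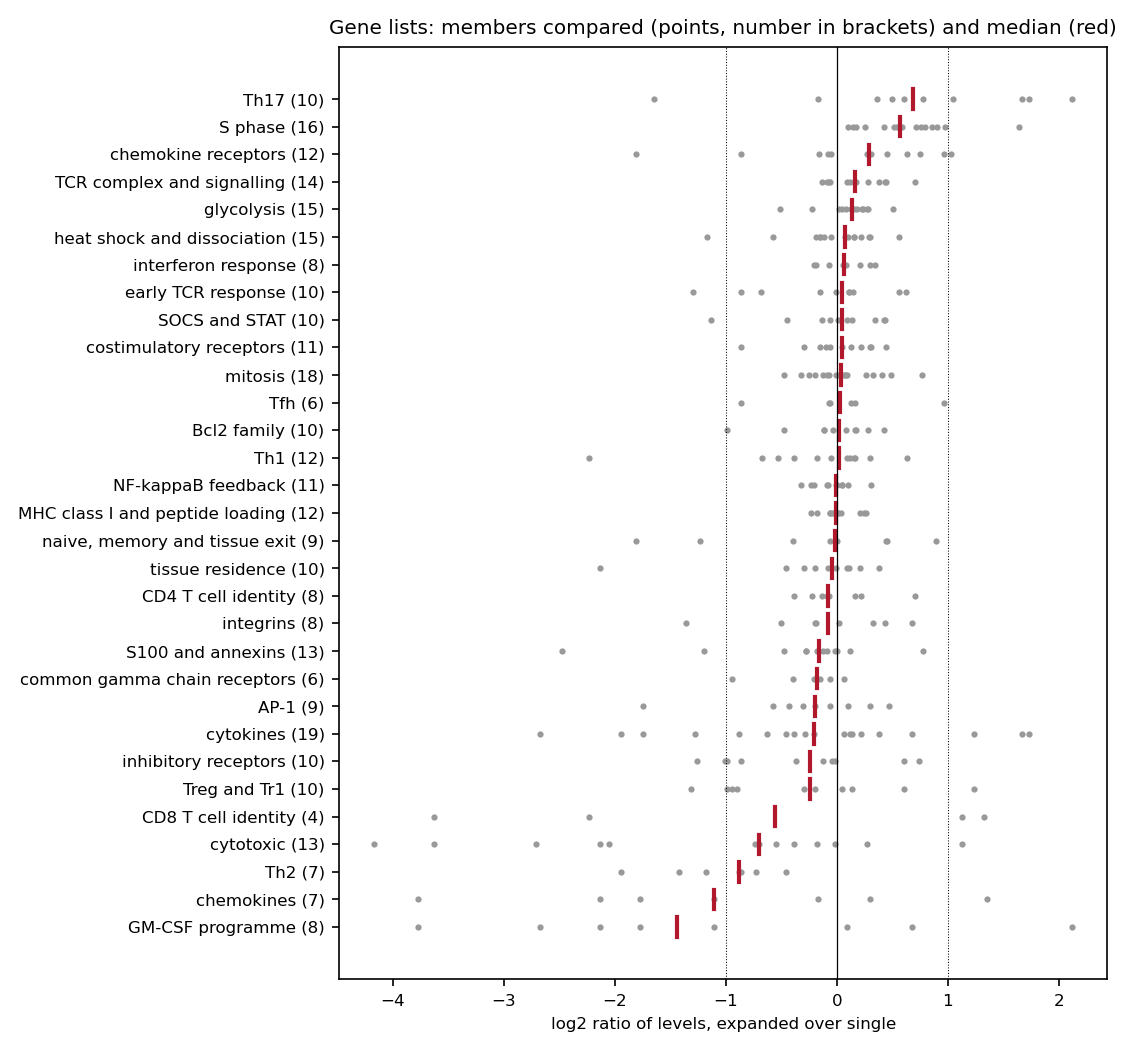
Log2 ratio of levels, expanded over single (x axis), for the compared members of each gene list with at least 3 (points, number in brackets) and the list's median (red bar); dotted lines mark 2-fold. The GM-CSF list has the lowest median at -1.44 and the Th17 list the highest at 0.69, and most lists centre near 0.

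The clonotypes of 2 to 4 cells resembled the single cells for Ifitm1 more than the expanded ones. The size classes used a separate draw of at most 5 CD4 class cells per clonotype, whose 224 expanded cells summed to 1493462 UMIs and had a pooled Ifitm1 level of 0.442 (0.342 to 0.562), against 0.182 in the draw used above. In it Ifitm1 was at 10.8 in single cells, 8.99 (8.10 to 9.96) in clonotypes of 2, 6.92 (6.19 to 7.70) in those of 3 to 4, 0.248 (0.145 to 0.397) in those of 5 to 9 and 0.606 (0.448 to 0.801) in those of 10 or more cells. Just outside and inside the threshold, clonotypes of exactly 4 cells (11 clonotypes) had a level of 6.71 and those of exactly 5 (8 clonotypes) a level of 0. Klrd1 had a like order, at 1.30, 1.02, 0.878, 0.0438 and 0.186.

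Other genes did not follow size in 1 direction. Csf2 was at 2.67, 3.95, 1.96, 0.438 and 1.14 over the same size classes, and at 0.817 (0.678 to 0.975) in the expanded cells of that draw against 0.420 in the draw used above. Gzma was highest in clonotypes of 2 cells at 21.7, against 9.67 in single cells and 1.94 in those of 3 to 4. Il17a was at 0.158 in single cells, 0.861 in clonotypes of 5 to 9 cells and 0.149 in those of 10 or more, so its excess lay in the middle sizes. Rrm2 was at 0.475 in single cells, 1.77 in clonotypes of 2 and 2.19 in those of 10 or more. Over all expanded cells of that draw it was at 1.63 (1.44 to 1.85), so it did not rise steadily with size.

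**Figure D5:**
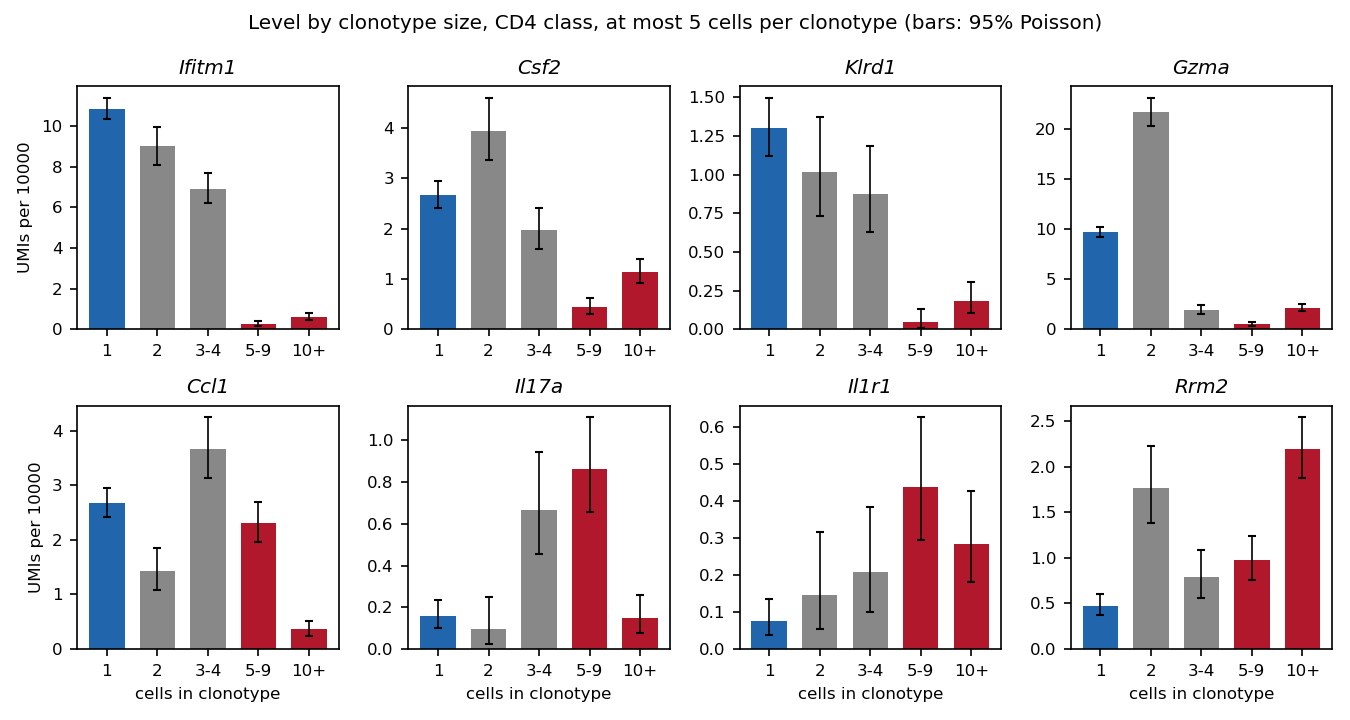
Level in UMIs per 10000 (y axis) of 8 genes by number of cells in the clonotype (x axis) for CD4 class cells, at most 5 per clonotype in a separate draw, with 95% Poisson intervals; blue is single, grey 2 to 4 and red expanded. Ifitm1 steps down between 3 to 4 cells (6.92) and 5 to 9 cells (0.248), and Il17a is high only at 3 to 9 cells.

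Single cells that shared a TRB with another kept cell differed from the others for some genes and not for Ifitm1. The 60 such cells had a Csf2 level of 0.394 (0.231 to 0.631) against 3.63 (3.27 to 4.02) in the 153 cells with a TRB seen nowhere else. Ccl1 was at 0.464 against 3.61, Xcl1 at 0.0232 against 2.22, Gata3 at 0.603 against 1.70 and Calca at 0.0695 against 1.02. Cd7 was at 2.02 against 0.744, and Il17a at 0.533 against 0 UMIs, but most of these Il17a UMIs came from a lone cell at a level of 37.7. On these genes, Il17a left aside, the shared-TRB cells lay nearer to the expanded clonotypes. Ifitm1 was at 11.3 (10.3 to 12.3) against 10.7 (10.0 to 11.3), with no such split. The shared-TRB cells had a median of 6469.5 UMIs, above 4863 in the others, and 48.3% of them had at least 2 TRA against 17.0%; the part of these values in the differences was not tested.

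By V segment, the 56 single cells with 1 of the 4 segments absent from expanded clonotypes had Ifitm1 at 12.9 (11.8 to 13.98) and Csf2 at 3.37 (2.85 to 3.96). The 157 with another segment had Ifitm1 at 9.94 (9.34 to 10.6) and Csf2 at 2.36 (2.07 to 2.68). Both kinds of single cell were thus far above the expanded level for Ifitm1 (0.182, or 0.442 in the other draw) and above that for Csf2 (0.420, or 0.817). Other genes differed by segment, in both directions. In cells with 1 of the 4 segments against the others, Areg (amphiregulin) was at 11.6 against 2.32, beside 3.77 in expanded cells. Hs3st1 was at 0.922 against 0.208 and Gata3 at 2.05 against 1.08, but Ccl3 at 2.54 against 3.71 and Ccl5 at 7.62 against 26.3. The part of the V segment in the ratios was not tested.

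The largest clonotypes differed among themselves. Over all its 40 CD4 class cells clonotype 1 had Gzma at 8.29, with UMIs in 16 cells, while clonotypes 2 to 6 ranged from 0 to 0.542. It also had Rrm2 at 3.17, close to clonotype 6 at 3.05 and above 0.126 in clonotype 3. Clonotypes 2 and 3 shared a pattern: Pdcd1 was at 7.30 and 5.68 and at most 1.01 in the other 4, and Ccl5 at 94.2 and 85.5 against at most 33.9. Their Areg, the growth factor amphiregulin, was at 11.9 and 8.65 against at most 5.11.

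Clonotype 4 had most Icos, a costimulatory receptor, at 15.8, and most Il7r, the interleukin 7 receptor, at 9.45, with Cd5 at 0.714 against 4.67 or more in the others. Clonotype 5 had Itgb1 at 2.40, against 0.883 or less in the others, and Gzmk at 3.02, beside 2.60 and 2.78 in clonotypes 2 and 3. Clonotype 6 had Il22 at 1.27 and Il17a at 0.965, and Pdcd1 at 0.270. Ifitm1 was low in all 6, from 0 in clonotype 5 to 2.37 in clonotype 2.

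Markers of other cells moved with some of these groups. The macrophage list summed to 0.699 in expanded and 1.95 in single cells, with Csf1r, Cd14 and Mrc1 at 0 in the first and C1qa and Mrc1 at 0 in the second, and 1 single cell held 53.0% of the single UMIs of Cd74. The CD8 identity list, Klrd1 included, summed to 1.38 and 2.49 beside 34.5 in the CD8 class, and Cd8a and Cd8b1 are at 0 by the class rule. Of its 4 compared genes Klrd1 and Ly6c2 were at least 2-fold lower, while Gzmk, given above, and Eomes, a transcription factor of cytotoxic and natural killer cells, were at least 2-fold higher. Eomes was at 0.259 against 0.103 (ratio 2.51, 1.34 to 4.92). The neutrophil list summed to 0.0140 and 0.151 with 6 of its 7 genes at 0 in both groups, and Ncr1, the defining natural killer cell gene, was at 0 in both. The CD4 identity list summed to 31.4 and 30.4. The part of macrophage or CD8 transcripts in the chemokine, Klrd1 and granzyme values was not tested.

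In the CD8 class the same comparison, 217 cells of 50 expanded clonotypes against 242 single cells, had 17 of 6259 genes (0.272%) at least 2-fold higher and 40 (0.639%) at least 2-fold lower. Side by side, the CD8 ratios were 0.410 for Ifitm1, 0.0327 for Csf2, 0.268 for Xcl1, 1.69 for Gzma, 0.922 for Klrd1 and 0.960 for Rrm2, and the difference between the classes was not tested.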

How the data were processed

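The deposited gene matrix holds counts of UMIs per gene and barcode, made by the authors with Cell Ranger on mm10, per the submitters' processing notes; of its version and the receptor reference nothing is given in the sources used here. The deposited contig table gives each contig's V and J segments, CDR3 and UMI counts. Of 5348 barcodes, 5333 with at least 500 genes and at most 10% mitochondrial UMIs were kept (median 4800 UMIs, 2549 to 39138). No doublet caller was run; cells with 2 or more TRB had no clonotype by the rule. UMIs were summed per group, with a floor of 3 UMIs for a group at 0. Shares were compared after thinning to 2000 UMIs. Analyses ran in Python 3.11.15 (matplotlib 3.10.9, pandas 2.3.3, scipy 1.17.1, numpy 2.4.6). The ratio and its interval were checked on simulated Poisson counts per gene, which held no differences between cells or clonotypes.

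Named genes were the 12 highest and 12 lowest of those with at least 50 UMIs, without receptor segment, mitochondrial, ribosomal and predicted genes. They were ranked by the interval bound nearest 1 without each gene's top clonotype and top single cell, and up to 3 members of each of 37 lists were added. Ifng, Tbx21, Ahr, Gzmb, Il10, Klrc1, Ifitm2, Ifitm3, Rora, Ccl5, Bhlhe40, Tnf and Areg lie outside the rule and were chosen after their values were seen. So do Ccr9, Klrg1, Cd200 and Gzmc, named because each was past 2-fold in a list, and their own ratios were not run in the alternatives. A few genes that the rule picks are not reported here. The members and lists were chosen with earlier results of these data known. Alternatives were other caps, sizes, clonotype definitions, depths and filters; using only single cells with neither chain in another kept cell was added after seeing the data.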

Additional observations from a re-analysis of the deposited data

Results flagged for a closer look

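The receptor library held 847 barcodes with contigs and no RNA profile, data outside the comparison. Of these 329 had 1 TRB and at least 1 TRA, and 151 of them (45.9%, 40.4 to 51.4) carried the receptor of 1 of 30 expanded CD4 clonotypes. Their Cd4 and Cd8 transcripts are unknown, so they were counted in no clonotype size.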

How the results depend on the processing

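No paired analysis was possible because there was 1 pool and the labels give no replicate numbers. Of 110 genes examined, 49 were past 2-fold, beside 50 higher and 87 lower among all 5876 compared. Of the 49, 44 kept their sign in every alternative that gave a value, and over all 110 genes 88 did. The 110 were picked by their values in these same data, and the ranking itself left out the top clonotype and top single cell. Their signs were therefore likely to hold, and these counts are no support for the differences. Of those that turned, 17 were below 2-fold, among them Egr1 (lowest ratio 0.977), Isg15 (0.885), Top2a (0.929), Ifng (0.720), Bhlhe40 (0.988), Gzmb (0.723) and Ube2c (highest ratio 1.51). Drawing other cells, or all cells, moved the ratio of 18 of the 110 genes by over 1.5 times, Ifitm1 and Csf2 included. The cause of the changes below was not tested. The counts of genes at least 2-fold higher and lower, 50 and 87, follow the filter and the cells used. Higher genes numbered 216 with clonotypes weighted equally, 112 without a cap, 384 from 10 UMIs up, 92 with single cells of unshared TRB, 116 with single cells of neither chain shared (122 cells), 26 without each gene's top clonotype and 100 without its top single cell. Lower genes numbered 155 with 1 cell per clonotype, 135 without each gene's top clonotype, 55 without cycling cells, 28 after thinning to 2000 UMIs and 415 from 10 UMIs up. Expanded clonotypes numbered 115 from 2 cells up and 25 from 10 up. The S phase median log2 ratio was 1.08 with equal weights, 1.09 from 10 cells up and 0.11 without cycling cells. The GM-CSF median was -3.48 with 1 cell per clonotype, -0.57 from 2 cells up, -0.83 without cycling cells and -2.23 with neither chain shared. The cytotoxic median was -1.18 with 1 cell per clonotype. The Th2 median was -1.31 from 10 cells up, -1.43 by TRB only and -1.30 with exactly 1 TRA, and the Th17 median was 1.33 by TRB only. Directions turned for Il22 (-2.67 with 1 cell per clonotype, -0.20 from 10 cells up), Il17a (-0.0913 from 10 cells up), Cd74 (0.997 with 1 cell per clonotype), Ier3 (0.0157 by TRB only) and Lyz2 (1.07 with 1 cell per clonotype, 0.20 without its top single cell, 0.0912 with neither chain shared), all as log2 ratios.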

Other observations

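The 976 CD4 class cells without a full receptor had a median of 4515.5 UMIs and lay between the groups for several genes. Ifitm1 was at 5.61, Csf2 at 1.54, Klrd1 at 0.497, Gata3 at 1.12 and Cd7 at 1.69 UMIs per 10000. Il17a was at 0.342 and Il22 at 0.277, and Hs3st1, at 0 in each size class from 2 cells up, was at 0.287. Their clone sizes are unknown.

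Survival genes included 1 marked difference among 10 compared members of the Bcl2 family, whose median log2 ratio was 0.02. Bcl2, which blocks apoptosis, was at 0.573 in expanded and 1.14 in single cells (ratio 0.505, 0.383 to 0.662), and Bcl2l11 (Bim), which promotes it, at 0.776 against 1.08 (ratio 0.719, 0.559 to 0.922). Socs2, a suppressor of cytokine signals, was at 0.678 against 1.49 (ratio 0.457, 0.356 to 0.583), while the other SOCS and STAT genes kept the list's median at 0.05. Glycolysis genes (15 compared) and MHC class I genes (12 compared) had median log2 ratios of 0.14 and -0.01 with none past 2-fold.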
